A study of Sus scrofa with 12 samples.

Results

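The genes described here are the platelet-derived growth factor (PDGF) ligands PDGFA, PDGFB, PDGFC and PDGFD and their receptors PDGFRA and PDGFRB. They were taken by gene symbol from a table of 21674 coding genes, which held 5 of the 6 genes. PDGFB was found under no row by its symbol and is not analysed here. The study sequenced total RNA, depleted of ribosomal RNA, from testes taken by castration from Hezuo (HZ) and Landrace (LC) boars, to compare an early-maturing Chinese breed with a control breed at 2 ages. Ha and Hb are the 30-day-old and the 120-day-old HZ boars, and La and Lb are the LC boars of 30 and 120 days. Each group had 3 libraries, 1 per boar, which makes 12 libraries of whole testis. The counts assigned to coding genes ran from 17165519 in Hb3 to 23758931 in Ha1, and the 5 genes together had from 1685 counts in Hb3 to 17042 in La3.

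PDGF ligands are secreted dimers that bind a pair of receptor tyrosine kinases on neighbouring mesenchymal cells. In the testis they are known to come largely from the epithelium of the seminiferous cords, while the receptors are carried by interstitial, peritubular and vascular cells. PDGFA signalling through PDGFRA is known to be needed for adult Leydig cells to form, and PDGFRB is a marker of pericytes and other perivascular cells.

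Levels between genes are compared as FPKM, which scales fragments by transcript length and by library size. Differences between groups are log2 fold changes (log2FC, second group over first) with their standard error (SE), from edgeR's quasi-likelihood test with Benjamini-Hochberg adjustment over all genes tested. A gene was called when its adjusted p was under 0.05 and its absolute log2FC was over 1. For 3 boars a group, exact permutation of 1 gene's values cannot reach a p below 0.1, so the tests rest on a spread estimated across genes. Among the 120-day HZ libraries, Hb1 and Hb2 stood apart from the others in some genes. Hb2 had the highest PDGFC, PDGFD and PDGFRB of the 3, and Hb1 had a summed FPKM of 2137 for 6 Leydig cell markers against 115 in Hb2 and 53.6 in Hb3.

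The 5 genes were lower at 120 days than at 30 days in HZ boars, and 4 of them were called. The share of all 16548 genes tested that was called lower in the same comparison was 23.2%, and 28.2% was called higher. In LC boars 4 of the 5 genes were also called lower, where 20.2% of 16637 genes was called lower and 27.5% higher. PDGFD was the gene not called in either breed. The median log2FC of the 5 genes was -1.64 in HZ and -1.30 in LC boars, and that of all genes tested was -0.02 and 0.01. Levels are relative to all RNA counted in a library. In whole testis, fewer cells of a type, less RNA per cell and more RNA from other cells cannot be told apart. This holds for each difference given here.

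**Figure D1:**
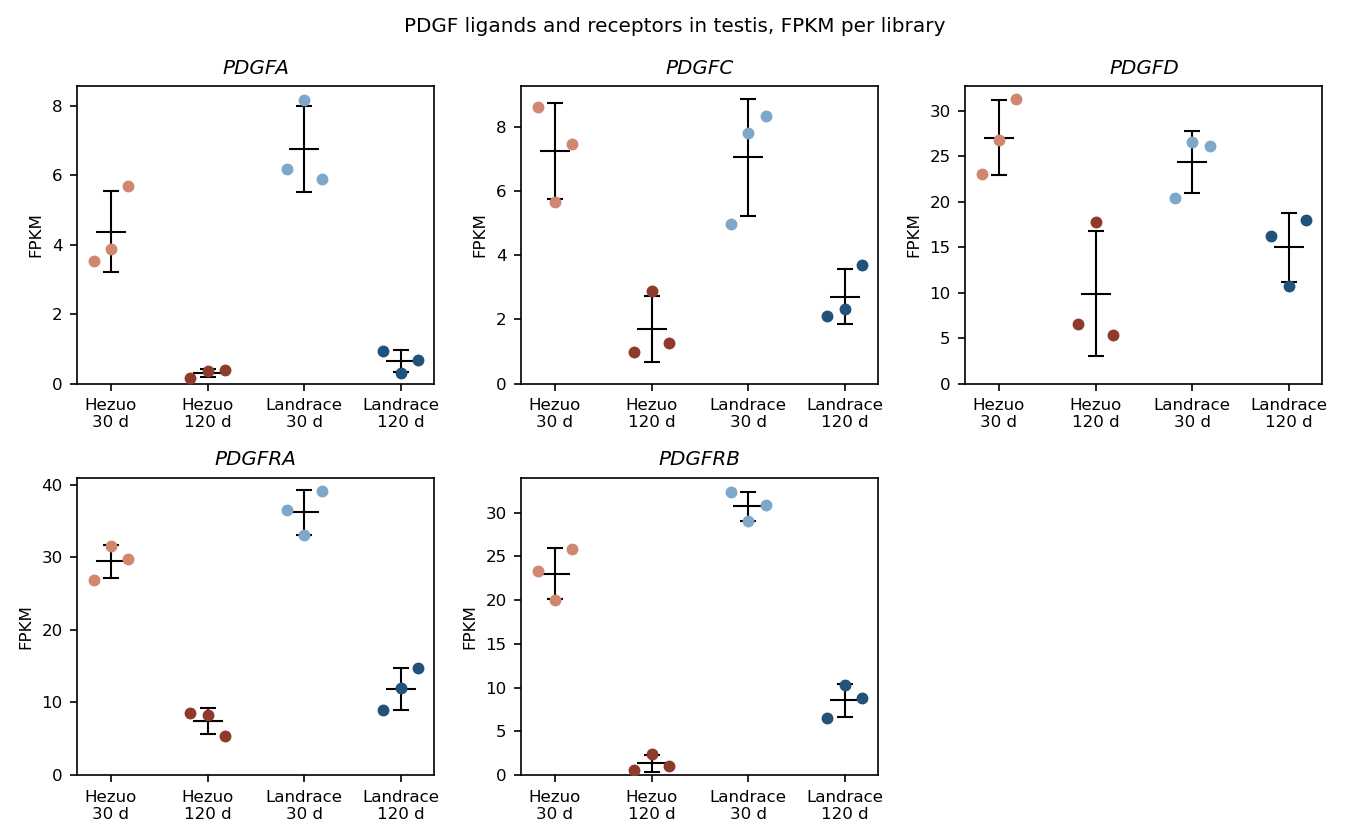
FPKM (vertical axis, from 0) of the 5 genes in each of the 12 libraries, by breed and age; points are libraries, the long tick is the group mean and the bars show 1 SD, n = 3. PDGFRB lay between 0.57 and 2.41 in the 120-day Hezuo libraries and between 6.5 and 10.24 in the 120-day Landrace libraries.

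PDGFA, a ligand of PDGFRA, lies on chromosome 3 from 296399 to 322967 (all positions are on build Sscrofa11.1). Its FPKM was 3.54, 3.88 and 5.7 in Ha and 0.16, 0.35 and 0.39 in Hb. In LC boars the values were 6.19, 8.17 and 5.9 in La and 0.95, 0.3 and 0.69 in Lb. Every 30-day library was above every 120-day library of either breed. The estimated counts behind the low values were 8, 17 and 15 in Hb and 49, 18 and 34 in Lb, so that levels at 120 days rest on few fragments. PDGFA was 12.0-fold lower in Hb than in Ha (log2FC -3.59, SE 0.38, edgeR adjusted p = 0.000141) and 8.66-fold lower in Lb than in La (log2FC -3.11, SE 0.35, edgeR adjusted p = 8.04e-05). Both were called under all alternatives, where the log2FC ran from -3.88 to -2.03 in HZ and from -3.43 to -2.24 in LC boars. The smallest of these were with limma on log2(FPKM + 1), at 4.09-fold and 4.74-fold. These are ratios of FPKM + 1 and not of FPKM, and adding 1 to levels under 1 FPKM makes the ratio smaller.

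PDGFC, whose product must be cut by proteases before it can bind, lies on chromosome 8 from 45579065 to 45808789. Its FPKM was 8.62, 5.66 and 7.47 in Ha and 0.97, 2.88 and 1.25 in Hb. The LC values were 4.98, 7.83 and 8.36 in La and 2.1, 2.32 and 3.69 in Lb. The 2 ages did not overlap in either breed, and Hb2 was the highest of the Hb libraries. PDGFC fell by 1.64 on the log2 scale in HZ boars (SE 0.36, edgeR adjusted p = 0.0052) and by 1.10 in LC boars (SE 0.25, edgeR adjusted p = 0.0042). The LC difference was close to the fold threshold and was not called without La3 (log2FC -0.97) or without Lb1 (log2FC -0.96).

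PDGFD, a protease-activated ligand of PDGFRB, lies on chromosome 9 from 34388636 to 34621227. FPKM values of PDGFD were 23.01, 26.77 and 31.28 in Ha and 6.57, 17.73 and 5.29 in Hb. They were 20.37, 26.49 and 26.1 in La and 16.24, 10.7 and 17.93 in Lb. On the FPKM scale the ages did not overlap, but on CPM (counts scaled to library size with edgeR's TMM factors) they overlapped in both breeds. PDGFD had a log2FC of -1.01 in HZ boars (SE 0.39, edgeR adjusted p = 0.0528) and -0.39 in LC boars (SE 0.18, edgeR adjusted p = 0.0856), and neither was called. Without Hb2 the HZ log2FC was -1.67 (SE 0.18, edgeR adjusted p = 0.000533) and was called. It was called under 5 of 15 alternatives, the others being limma with 1 or 0.1 added to FPKM (log2FC -1.53 and -1.64), edgeR without TMM (-1.27) and with the replicate number as a block (-1.16). Over all alternatives this HZ log2FC ran from -1.67 to -0.71 and its adjusted p from 0.000533 to 0.145, so the result depends on the setting.

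A short gene, DDI1, lies inside PDGFD, from 34503087 to 34505026. DDI1 had 0, 1 and 5 estimated counts in Ha and 11, 2 and 3 in La, against 4179, 3519 and 3965 in Hb and 3721, 3153 and 2349 in Lb. The strand setting of the counting is not given in the sources used here, so whether fragments of DDI1 were shared with PDGFD was not tested, and PDGFD levels at 120 days are uncertain to that extent.

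PDGFD gave most of the ligand FPKM in every library, from 62.3% of the 3 ligands in La2 to 85.3% in Hb1. The share of PDGFA was 11.2% ± 1.45 (SD, n = 3) in Ha and 3.13% ± 2.18 in Hb. In LC boars it was 17.8% ± 2.78 in La and 3.42% ± 1.37 in Lb.

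PDGFRA, the receptor for PDGFA and PDGFC, lies on chromosome 8 from 40966568 to 41021440. Its FPKM was 26.93, 31.52 and 29.83 in Ha and 8.57, 8.28 and 5.34 in Hb. LC boars had 36.5, 33.01 and 39.15 in La and 9, 11.95 and 14.73 in Lb. The 30-day and 120-day values were far apart in both breeds, with Hb3 the lowest library. PDGFRA was 2.83-fold lower in Hb than in Ha (log2FC -1.50, SE 0.20, edgeR adjusted p = 0.000468) and 2.46-fold lower in Lb than in La (log2FC -1.30, SE 0.16, edgeR adjusted p = 0.00013).

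PDGFRB, which binds PDGFB and PDGFD, lies on chromosome 2 from 151155753 to 151192818. FPKM of PDGFRB was 23.28, 19.99 and 25.8 in Ha but 0.57, 2.41 and 1.05 in Hb. It was 32.38, 29.03 and 30.84 in La and 6.5, 10.24 and 8.84 in Lb. The estimated counts of PDGFRB were whole numbers at 30 days and in Lb2 and Lb3, but not in the Hb libraries (97.85, 447.52 and 149.66) or in Lb1 (1207.96), and those of PDGFC and PDGFD were not whole in any of the 12 libraries. How such counts were divided is not given in the sources used here. The ages did not overlap in either breed, and the lowest Lb library was above the highest Hb library. PDGFRB was 12.5-fold lower in Hb than in Ha (log2FC -3.65, SE 0.45, edgeR adjusted p = 0.000293) and 2.91-fold lower in Lb than in La (log2FC -1.54, SE 0.17, edgeR adjusted p = 6.13e-05). Without Hb2 the HZ difference was 19.9-fold (log2FC -4.32), and over all alternatives its log2FC ran from -4.32 to -3.30 and was called in each.

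The study included PDGFRB among the genes it measured by quantitative PCR, on the RNA extracted for sequencing. It reports, for Ha vs Hb and Hb vs Lb, that the expression of each gene measured matched the sequencing. The PCR values were not read here. The primer pair for PDGFRB is shown because PDGFRB is the gene called between the breeds. Both run 5′ to 3′ in lower case, and their place in the gene was not determined here.
PDGFRB forward: ccccacatccgttctatcc
PDGFRB reverse: tccagctctccaatcagcc

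Between the breeds at 30 days 0 of the 5 genes was called by edgeR, by DESeq2 or by limma on log2 FPKM, with 3.6% of 15648 genes called higher in La and 4.01% lower. At an unadjusted p under 0.05 in edgeR, 3 of the 5 genes were higher in La and 0 lower, beside 2736 of the 15648 genes tested higher (17.5%) and 2967 lower. PDGFRB had a log2FC of 0.45 (SE 0.11, edgeR adjusted p = 0.0223) and PDGFRA one of 0.33 (SE 0.10, edgeR adjusted p = 0.0435), both under the fold threshold and with no overlap between the groups. PDGFA had a log2FC of 0.66 (SE 0.21, edgeR adjusted p = 0.0597), also without overlap. For PDGFC and PDGFD the log2FC was 0.00 (SE 0.21) and -0.12 (SE 0.14), and their sign changed under some alternatives. In the same comparison 3 of 7 Sertoli markers were called higher in La, AMH at a log2FC of 1.96 (SE 0.28), INHA at 1.51 (SE 0.19) and FSHR at 1.22 (SE 0.15), with a list median of 0.41. Lower in La were 3 of 7 spermatocyte markers (median -0.58) and 1 of 7 tested spermatogonia markers (median -0.54), and no marker of the other lists was called. The 5 stromal fibroblast markers had a median of 0.66, and 3 of them were under the adjusted p threshold but not the fold threshold, COL1A2 at 0.74 (SE 0.13, edgeR adjusted p = 0.00778), DCN at 0.66 (SE 0.11, edgeR adjusted p = 0.0059) and COL3A1 at 0.61 (SE 0.11, edgeR adjusted p = 0.00741). The median was 0.00 for the pericyte, -0.22 for the endothelial and -0.06 for the peritubular and smooth muscle markers. In these lists ACTA2 (-0.62, edgeR adjusted p = 0.00631) and PECAM1 (-0.56, edgeR adjusted p = 0.0267) passed the adjusted p threshold only. DES did so as well, but was higher in La (0.47, edgeR adjusted p = 0.0486). The part of these cells in the 30-day PDGF values was not tested.

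At 120 days PDGFRB was the 1 gene of 5 called, higher in Lb than in Hb by a log2FC of 2.57 (SE 0.46, edgeR adjusted p = 0.0249), or 5.93-fold. Of 16311 genes tested, 2.65% was called higher in Lb and 1.2% lower. The PDGFRB call was lost without Hb3 (adjusted p = 0.0879), without Lb1 (adjusted p = 0.0609), without Lb2 (adjusted p = 0.093) and without Lb3 (adjusted p = 0.0794) in edgeR, while the log2FC stayed between 2.08 and 3.25 over all alternatives. Their adjusted p ran from 8.30e-08 with DESeq2 to 0.093. For PDGFA the log2FC was 1.15 (SE 0.53, edgeR adjusted p = 0.219), with overlapping groups. PDGFC, PDGFD and PDGFRA had log2FC values of 0.56 (SE 0.40), 0.50 (SE 0.42) and 0.56 (SE 0.23), none of them called. Without Hb2, PDGFD was called at a log2FC of 1.17 (edgeR adjusted p = 0.0341).

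The age difference itself was compared between the breeds in 1 fit of the 12 libraries. The interaction, the log2 change with age in LC minus that in HZ boars, was 2.09 for PDGFRB (SE 0.48, edgeR adjusted p = 0.0282), so that PDGFRB fell less in LC boars. This was called, as were 3.51% of 17332 genes with a higher and 1.63% with a lower interaction. The call was lost without any 1 of Ha1, Ha3, Hb3, La1, La2, La3 or Lb2, where the adjusted p in edgeR was 0.0522 to 0.073. Over all alternatives the PDGFRB interaction lay between 1.67 and 2.75, with an adjusted p of 0.000526 to 0.073. For the other 4 genes it was between 0.18 (SE 0.26) for PDGFRA and 0.59 (SE 0.48) for PDGFD, and none was called, although PDGFD was called without Hb2 (1.22, edgeR adjusted p = 0.0242).

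**Figure D2:**
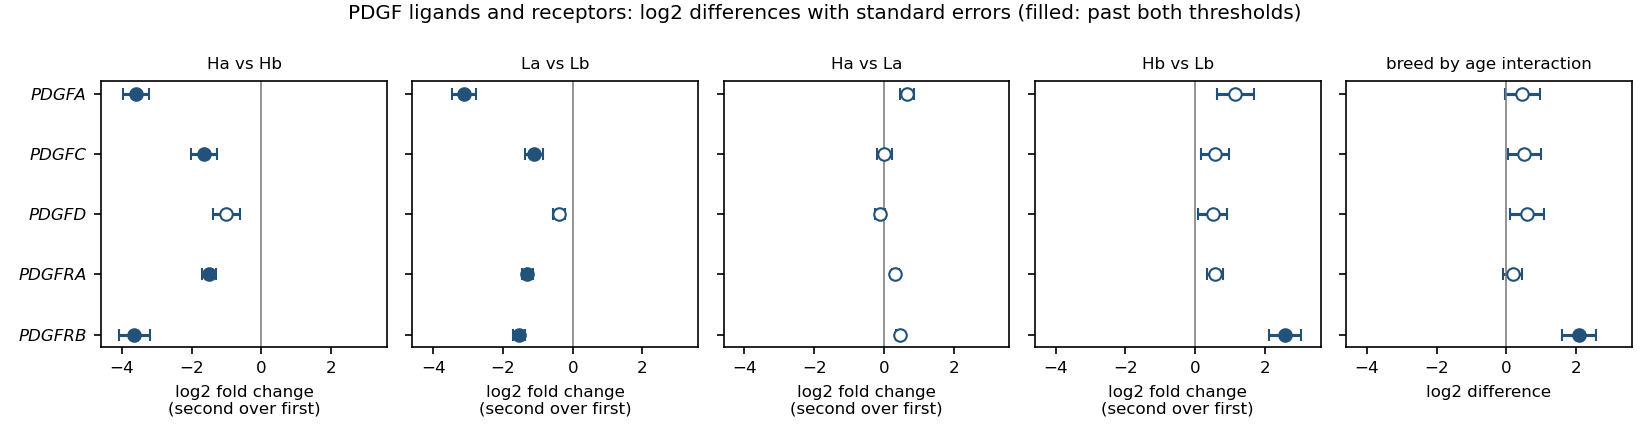
Log2 fold change (horizontal axis, second group over first) of each gene in 4 comparisons, and the interaction of breed and age (LC minus HZ), with bars of 1 SE; filled points passed both thresholds. PDGFRB has the highest value at 120 days (2.57) and in the interaction (2.09), and the sign of PDGFC and PDGFD at 30 days, of the PDGFA interaction and of the PDGFRA interaction changed under some alternatives.

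The order of FPKM levels was described by group means. At 30 days the mean of PDGFRA was highest in both breeds, at 29.4 ± 2.32 (SD, n = 3) in Ha and 36.2 ± 3.08 in La. PDGFRA, PDGFD and PDGFRB overlapped in part in Ha but not in La. PDGFA was the lowest of the 5 in both breeds, and its range overlapped with that of PDGFC. At 120 days PDGFD had the highest mean, at 9.86 ± 6.84 in Hb and 15.0 ± 3.78 in Lb, but its range overlapped that of PDGFRA. In HZ boars that mean rested on Hb2 with 17.73, since PDGFRA was above PDGFD in Hb1 (8.57 and 6.57) and Hb3 (5.34 and 5.29), as it also was in Lb2 (11.95 and 10.7). PDGFRB overlapped PDGFC in Hb, where the 2 means were 1.34 and 1.70, but was above PDGFC in every Lb library.

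The ratio of PDGFRA to PDGFRB FPKM was 1.16, 1.58 and 1.16 in Ha and 15.0, 3.44 and 5.09 in Hb. It was 1.13, 1.14 and 1.27 in La and 1.38, 1.17 and 1.67 in Lb. The Hb libraries were above all others, with Hb1 the highest.

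Marker genes of cell types also differed between the groups, and not all in the same direction. All 5 stromal fibroblast markers were called lower in Hb than in Ha (median log2FC -3.83) and 3 of 5 in Lb than in La (median -1.50). Their summed FPKM was 815, 772 and 799 in Ha, 60.1, 33.4 and 21.0 in Hb, 1190, 1090 and 1353 in La and 377, 353 and 320 in Lb, with COL3A1 the most abundant. At 120 days 3 of the 5 were called higher in Lb than in Hb, with a median of 3.64, and none of the 5 was at 0 in all 12 libraries. The part of these markers in the PDGFRA and PDGFRB differences was not tested. Relative to 1000 FPKM of the stromal list, PDGFRB stood at 28.6, 25.9 and 32.3 in Ha, 9.48, 72.1 and 49.98 in Hb, 27.2, 26.6 and 22.8 in La and 17.2, 29.0 and 27.6 in Lb. The spread was wide in Hb and included the values of the other groups. PDGFRA on the same scale was 143, 248 and 254 in Hb but 23.8 to 46.0 in the other groups.

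Perivascular and vascular cells carry PDGFRB, and 4 of 4 pericyte markers were called lower in Hb than in Ha and 2 of 4 in Lb than in La. The pericyte sum, with RGS5 the most abundant, was 40.2, 34.0 and 41.3 in Ha and 10.5, 10.6 and 7.58 in Hb. It was 39.7, 32.9 and 44.3 in La and 14.4, 17.2 and 18.0 in Lb. For 5 endothelial markers, with VWF the most abundant, the mean sum was 79.6 in Ha, 16.3 in Hb, 79.0 in La and 31.6 in Lb, with 5 markers called lower with age in HZ and 3 in LC boars. Markers of several lists were also called where PDGFRB was, at 120 days in Lb over Hb and in the interaction. Of the 4 pericyte markers CSPG4 and MCAM had a log2FC of 1.55 (SE 0.30) and 1.55 (SE 0.18) at 120 days and an interaction of 1.76 (SE 0.31) and 1.36 (SE 0.18). The other 2, RGS5 and NOTCH3, were called in neither, at 0.45 (SE 0.21) and 0.69 (SE 0.20), with an interaction of 0.18 (SE 0.27) and 0.78 (SE 0.26). Of the 5 peritubular and smooth muscle markers ACTA2 and CNN1 were called, at 1.96 (SE 0.24) and 2.21 (SE 0.26), with an interaction of 2.54 (SE 0.25) and 2.12 (SE 0.34). PECAM1 among 5 endothelial and AIF1 among 4 macrophage markers were called in both as well, and so were 3 of the 5 stromal markers. Spermatid markers were called lower, 1 of 8 at 120 days (AKAP4, log2FC -1.10, SE 0.21, list median -0.72) and 2 of 8 in the interaction (PRM1 at -1.83, SE 0.44, and ACRV1 at -2.96, SE 0.74, list median -1.42). DAZL, 1 of 8 spermatogonia markers, had a higher interaction (1.53, SE 0.27), and no Sertoli, Leydig or spermatocyte marker was called in either. The Leydig list still had a median log2FC of 2.05 at 120 days and an interaction median of 1.3001. The SE of its 6 markers at 120 days ran from 0.28 to 1.44. The Sertoli and spermatocyte medians were 0.48 and -0.39 at 120 days, and -0.17 and 0.84 in the interaction. Apart from RGS5 and NOTCH3, single markers were named because they were called. The part of these cell types in the PDGFRB differences was not tested.

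Leydig cells form from cells that carry PDGFRA, and 4 of 6 Leydig markers were called lower with age in each breed. The most abundant of them, INSL3, was called in neither breed, with a log2FC of -0.99 (SE 1.26, edgeR adjusted p = 0.504) in HZ and -0.26 (SE 0.38, edgeR adjusted p = 0.549) in LC boars. The summed FPKM of the 6 markers was 5398, 4898 and 4748 in Ha and 2137, 115 and 53.6 in Hb. It was 7521, 5094 and 6048 in La and 2620, 3965 and 1601 in Lb. Sertoli cell markers (INHA the most abundant) were called lower in 3 of 7 in each breed, with mean sums of 795 and 221 in Ha and Hb and of 1587 and 340 in La and Lb. Peritubular myoid and smooth muscle markers (ACTA2 the most abundant) were called lower in 2 of 5 in HZ and higher in 2 of 5 in LC boars, with mean sums of 213, 82.3, 168 and 244 in Ha, Hb, La and Lb. Macrophage markers (CD163 the most abundant) were called lower in 4 of 4 and 3 of 4, with mean sums of 24.7, 2.18, 23.2 and 5.17.

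Spermatid and spermatocyte markers rose with age. All 8 spermatid markers (PRM1 the most abundant) were called higher with age in both breeds, with mean sums of 6.08 FPKM in Ha, 5908 in Hb, 7.88 in La and 3418 in Lb. All 7 spermatocyte markers (HORMAD1 the most abundant) were called higher too, from 6.97 to 53.4 in HZ and from 3.91 to 44.6 in LC boars. Spermatogonia markers (DDX4 the most abundant) were split, with 3 of 8 higher and 3 lower in HZ and 4 higher and 3 lower in LC boars, and mean sums of 46.2, 170, 27.1 and 142. Platelets are 1 known source of PDGFB. Their markers had mean sums of 0.98, 0.727, 1.59 and 0.703 over 3 of the 4 listed genes, with ITGA2B the most abundant. Of the 2 tested, GP9 was called lower with age, at a log2FC of -2.75 (SE 0.43) in HZ and -1.34 (SE 0.34) in LC boars. No marker of any list was at 0 in all 12 libraries, and the part of germ cells in the lower PDGF levels was not tested.

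**Figure D3:**
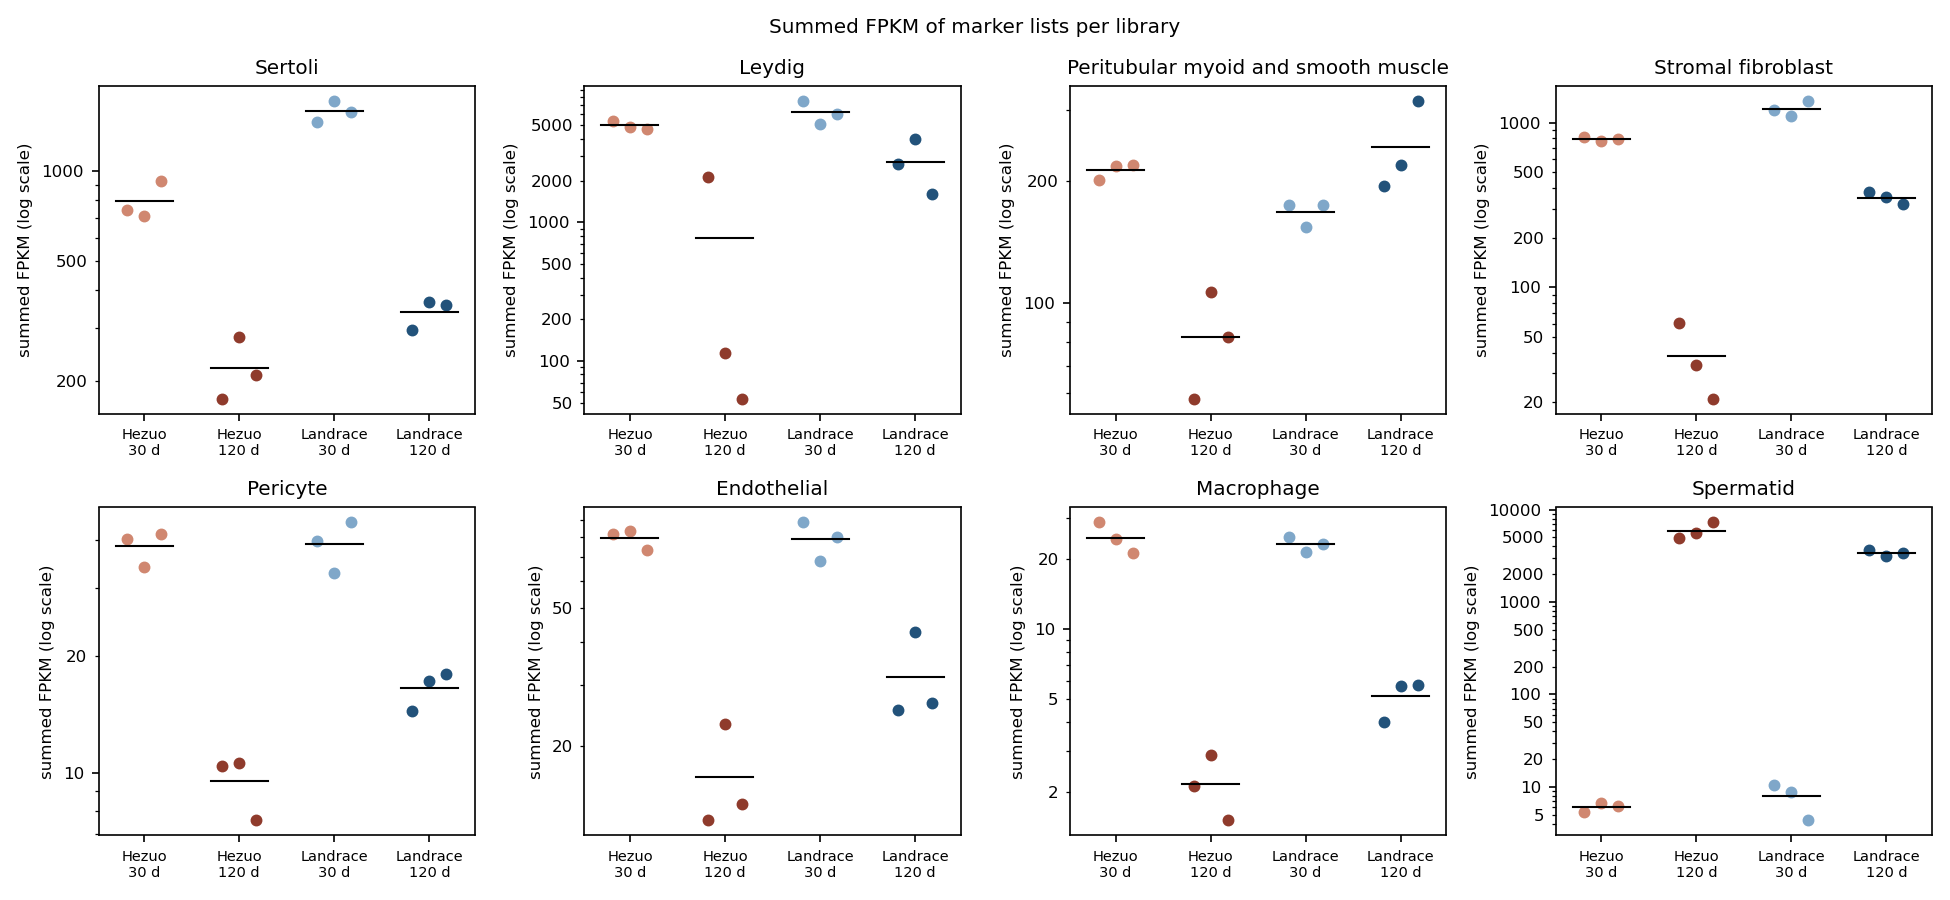
Summed FPKM (vertical axis, log scale) of 8 lists of cell type markers in each library by breed and age; points are libraries and lines are means of 3. The stromal sum lay between 21.0 and 60.1 in the 120-day Hezuo libraries and between 320 and 377 in the 120-day Landrace libraries.

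Other genes of the pathway were taken from 6 lists with 78 genes in all. In HZ boars 33 of 78 were called lower with age and 4 higher, a median log2FC of -0.87, and in LC boars 31 were lower and 5 higher, with a median of -0.82. Of all genes tested, 23.2% was called lower and 28.2% higher in HZ, and 20.2% lower and 27.5% higher in LC boars, and the counts of each list below stand beside these shares. Related ligands of the VEGF family were lower for 2 of 5 in HZ and 4 of 5 in LC boars. VEGFA, the main vascular growth factor, was 3.41-fold lower in Hb (log2FC -1.77, SE 0.17, edgeR adjusted p = 8.39e-05), and in Lb its log2FC was -1.70 (SE 0.16, edgeR adjusted p = 3.22e-05). VEGFC in HZ (log2FC -2.12, SE 0.39) and VEGFB in LC boars (log2FC -1.64, SE 0.14) were the others named by the rule.

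Receptors of the same class and the VEGF receptors were lower for 4 of 6 in HZ and 3 of 6 in LC boars. CSF1R, the macrophage growth factor receptor and a neighbour of PDGFRB at 25441 bases, had a log2FC of -2.59 (SE 0.31, edgeR adjusted p = 0.000262) in HZ and -1.63 (SE 0.25, edgeR adjusted p = 0.000493) in LC boars. FLT3 had a log2FC of -2.44 (SE 0.26) in HZ and KDR, the main VEGF receptor, one of -1.63 (SE 0.15) in LC boars.

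Among 12 genes of ligand processing, retention and co-receptors, 8 were called lower in HZ and 7 lower and 1 higher in LC boars. LRP1, an endocytic co-receptor of PDGFRB, had a log2FC of -2.54 (SE 0.26) in HZ and -1.62 (SE 0.16) in LC boars. PCSK6, a proprotein convertase, was at -1.87 (SE 0.19) in HZ, NRP1 at -1.40 (SE 0.13) in LC boars, and ST14, a protease, at 1.32 (SE 0.29) in LC boars, which with limma was 0.60 or 0.91 and not called. At 120 days SPARC, a matrix protein that binds PDGF, was the 1 gene of this list called between breeds, at a log2FC of 2.65 (SE 0.47, edgeR adjusted p = 0.0249) in Lb over Hb. The SPARC call was lost with the replicate number as a block and without Hb3, Lb1, Lb2 or Lb3, where edgeR's adjusted p was 0.0535, 0.0879, 0.0731, 0.0893 and 0.0687 while the log2FC stayed at 2.86, 2.56, 2.57, 2.60 and 2.78.

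Of 34 signal transducers, 8 were called lower and 2 higher in HZ and 6 lower and 2 higher in LC boars, which for the lower genes is near the share of all genes. AKT2 and NRAS were the 2 higher genes, at a log2FC of 1.44 (SE 0.17) and 1.49 (SE 0.16) in HZ and of 1.25 (SE 0.10) and 1.26 (SE 0.12) in LC boars. With limma NRAS stayed under the fold threshold, at 0.96 and 0.99 in HZ and 0.92 and 0.95 in LC boars. STAT5A was at -1.51 (SE 0.16) in HZ and -1.62 (SE 0.16) in LC boars, AKT1 at -1.41 (SE 0.14) in HZ and PIK3CB at -1.28 (SE 0.14) in LC boars. Of 10 genes of receptor down-regulation and phosphatases, 4 were called lower in HZ and 5 in LC boars. PTPRJ, a receptor phosphatase, was at -2.53 (SE 0.28) and -2.11 (SE 0.10), SPRY2 at -1.53 (SE 0.17) in HZ and DUSP6 at -1.38 (SE 0.13) in LC boars.

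Of 11 early response targets, 7 were lower and 1 higher in HZ and 6 lower and 1 higher in LC boars. JUN had a log2FC of -2.25 (SE 0.22) in HZ and -1.58 (SE 0.17) in LC boars, JUNB one of -2.04 (SE 0.26) in HZ and EGR1 one of -2.44 (SE 0.22) in LC boars. EGR3 was the higher gene, at 3.48 (SE 0.39) in HZ and 4.10 (SE 0.51) in LC boars, but was not called with limma on log2(FPKM + 1), at 0.66 and 0.87. Its level was low, with a mean FPKM of 0.09 in Ha, 0.73 in Hb, 0.08 in La and 0.98 in Lb. Adding 1 to such values makes the log2FC smaller. Between breeds at 30 days FOSB was the 1 gene of the 78 called, lower in La at -2.14 (SE 0.53, edgeR adjusted p = 0.0256). The FOSB call was lost without Ha1, Ha2, La1, La2 or La3, where the log2FC was -2.22, -1.53, -2.30, -2.17 and -1.92 and edgeR's adjusted p was 0.0564, 0.0759, 0.063, 0.0755 and 0.0983, and with limma on log2(FPKM + 1), at -0.50. No gene of the 78 was called higher at 30 days by edgeR, DESeq2 or limma (0 of 78), and at an unadjusted p under 0.05 in edgeR 14 were higher and 13 lower, beside 2736 and 2967 of the 15648 genes tested. At 120 days edgeR called 1 of 77 genes higher in Lb and 0 lower, with 15 higher and 6 lower at an unadjusted p under 0.05, beside 13.5% and 11.9% of all genes. DESeq2 called 4 higher and 1 lower, and limma 2 higher and 0 lower.

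Likeness to the PDGF genes over the 12 libraries was measured by Pearson's r of log2 CPM, with no test, since the libraries fall into age groups. For PDGFA the most alike of 15134 genes were PIAS3 (r = 0.991), CACNB3 (r = 0.99) and PRDM11 (r = 0.989). PDGFC was most like GNE (r = 0.975), LAMB2 (r = 0.974) and SSH1 (r = 0.966). The genes nearest PDGFD were ASB2 (r = 0.961), LARP7 (r = 0.953) and DENND4C (r = 0.942). VPS36 (r = 0.993), REL (r = 0.99) and PCYOX1 (r = 0.989) were nearest PDGFRA, and CNPY4 (r = 0.987), FBLN7 (r = 0.987) and ARHGEF1 (r = 0.986) nearest PDGFRB. Between the PDGF genes r ran from 0.728 for PDGFD with PDGFRA to 0.903 for PDGFA with PDGFRA.

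Positions were at hand for 9282 known lncRNAs and for 1371 of 1424 assembled ones, and none of these overlapped a PDGF gene. Within 10 kb there was 1, LOC110259826, 9406 bases from PDGFA on chromosome 3 from 267250 to 286992, with 0 to 3 estimated counts per library. Within 50 kb there were 7, of which 1 was tested. This was MSTRG.13057.1, an assembled transcript 40104 bases from PDGFRA on chromosome 8 from 40890697 to 40926463. Its estimated counts were 60, 53 and 49 in Ha, 74, 93 and 66 in Hb, 7, 7 and 6 in La and 57, 49 and 62 in Lb. The La libraries were far below the others. It was 7.66-fold lower in La than in Ha (log2FC -2.94, SE 0.35, edgeR adjusted p = 0.00639), where 3.77% of 2097 lncRNAs was called lower. In LC boars it was 6.21-fold higher at 120 days (log2FC 2.64, SE 0.40, edgeR adjusted p = 0.000843), where 41.8% of 2988 lncRNAs was called higher. In HZ boars it was not called with age (log2FC 0.35, SE 0.29, edgeR adjusted p = 0.341), and PDGFRA was lower at 120 days in both breeds.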

How the data were processed

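The authors depleted ribosomal RNA, made strand-specific libraries and deposited, for each coding gene and lncRNA, its FPKM and its estimated count. The tools named in the submitters' processing notes were fastp 0.18.0, Bowtie2 2.2.8, HISAT2 2.1.0 and StringTie 1.3.4; FPKM came from StringTie, and the tool and strand setting behind the estimated counts are not given in the sources used here. Estimated counts were rounded to whole numbers, with a remainder of exactly 0.5 rounded up. Genes passed edgeR's filterByExpr (minimum count 10), were scaled by TMM and tested with edgeR 4.0.16 in R 4.3.3 on the 6 libraries of each comparison, or on 12 for the interaction, with no covariate. DESeq2 1.42.0, limma 3.58.1 on log2(FPKM + 1) or log2(FPKM + 0.1), other filters and scaling, a replicate block and leaving out each library were the alternatives. CPM and log2 CPM (prior count 2) used TMM over the 12 libraries. Tables and figures were made with Python 3.11.15, numpy 2.4.6, pandas 2.3.3 and matplotlib 3.10.9, and the test was tried on simulated data. Named genes were all members, from each pathway list and comparison the called genes with the lowest adjusted p, 2 higher and 2 lower, and per member the 3 most alike genes; DDI1, MSTRG.13057.1 and the named cell type markers were added with their values known. The result of 1 gene that this rule names is not reported here. The members and lists were chosen with earlier results of these data known. Rounding a remainder of 0.5 to the even number was an alternative chosen after seeing the data, among them counts of called genes from an earlier analysis. Positions came from NCBI's annotation of Sscrofa11.1, matched by gene ID.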

Additional observations from a re-analysis of the deposited data

Results flagged for a closer look

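The change with age differed between the breeds, by the interaction test in edgeR, for PDGFRB at 2.09 on the log2 scale (LC minus HZ). The same test called 4 of 78 genes of the pathway lists, all with a higher interaction, or 5.13%, beside 3.51% of all genes tested with a higher and 1.63% with a lower interaction. DESeq2 called 4 of the 78 higher and 2 lower, and limma 5 or 7 higher and 0 lower. FLT3 had an interaction of 1.40 (SE 0.32, edgeR adjusted p = 0.027) and KIT one of 1.299 (SE 0.34, edgeR adjusted p = 0.041). FOS had one of 2.63 (SE 0.66, edgeR adjusted p = 0.0368) and FOSB one of 3.84 (SE 0.84, edgeR adjusted p = 0.0231), at a mean of 0.07 to 0.64 FPKM in the 4 groups. The calls of KIT and FOS were each lost without any 1 of 9 of the 12 libraries, where the interaction was 1.16 to 1.45 and 2.27 to 2.77, that of FLT3 without any 1 of 5 (1.37 to 1.51) and that of FOSB without any 1 of 4 (3.22 to 3.92). That of KIT was lost also with the replicate block (edgeR adjusted p = 0.0568), and those of FLT3 (0.85) and FOSB (0.71) with limma on log2(FPKM + 1), where they were under the fold threshold. Groups of 3 were not tested for single libraries that stand apart.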

How the results depend on the processing

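Of 400 refits of the PDGF genes' log2FC, 370 kept their sign and their side of the thresholds, 13 lost a call, 7 gained one and 10 changed sign; the age differences of the 5 genes changed sign in none. For the other named genes 49 of 605 refits lost the call. None of the 10 was of a called value. PDGFC in Ha vs La was -0.045 or -0.053 with limma on log2(FPKM + 1) or log2(FPKM + 0.1), -0.034 without TMM, -0.0041 with the replicate block and -0.14 to 0.21 with 1 library left out. PDGFD there was -0.22 to 0.0017 with 1 library left out. The PDGFA interaction of 0.46 was -0.21 with limma on log2(FPKM + 1), and that of PDGFRA -0.0044 to 0.36 with 1 library left out. The causes were not tested.

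Counts of all genes called moved by over 1.5 times to 507 in Ha vs La with limma on log2(FPKM + 1), and from 628 in Hb vs Lb to 1176 with DESeq2, 1259 with 12 libraries in 1 fit, and 97 (without Lb2) to 1029 (without Hb2). For the interaction the 892 calls became 1363 with DESeq2, 1365 with limma on log2(FPKM + 0.1), and 437 to 1243 with 1 library left out. Of the 5 genes, 0 to 2 were called in Hb vs Lb and 0 to 2 in the interaction with 1 library left out. The causes were not tested.

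Same-numbered libraries had correlations of their deviations from the group mean between -0.051 and 0.056. Libraries of different numbers were not compared, so this does not settle whether the numbers pair the libraries. With the replicate block 154 genes were called in Hb vs Lb, PDGFRB among them (edgeR adjusted p = 0.0409), and PDGFD was also called in Ha vs Hb (log2FC -1.16, edgeR adjusted p = 0.0319).

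The median log2FC of all genes in Ha vs Hb was -0.28 and -0.47 with limma and -0.32 without TMM, and in La vs Lb -0.16, -0.27 and -0.16. PDGFD was called in Ha vs Hb under these 3, where its log2FC less that median was -1.25, -1.17 and -0.95.

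Rounding a remainder of 0.5 to the even number, chosen after seeing the data, gave 8510 in place of 8512 calls in Ha vs Hb, 7926 in place of 7927 in La vs Lb and 890 in place of 892 for the interaction, and changed no PDGF call. The lncRNAs near the PDGF genes were 0 by overlap and 7 within 50 kb. Levels from CPM per length were not run, because no length is used here. Depth limits PDGFA at 120 days, with 8 to 49 counts.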
